A study of Mus musculus with 2 samples.

Results

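Arg1-positive C1q macrophages were taken from 2 single-cell libraries of immune cells by a rule on raw counts of unique molecular identifiers (UMIs), each of which marks 1 captured RNA molecule. A member barcode held at least 5 UMIs of C1qa, C1qb and C1qc together and at least 1 of Arg1. It held at most 1 of the alveolar macrophage genes Plet1, Car4 and Krt79, under 2 of the T cell genes Cd3d, Cd3e, Cd3g and Trac, 0 of the B cell gene Cd79a, and under 20 of the melanocyte genes Pmel and Dct. The members were thus chosen by measured UMI counts of these genes, whose levels are given as a description. The rule found 58 of 20364 barcodes that had at least 500 UMIs and under 20% mitochondrial UMIs. Of these, 12 were among 10313 barcodes of the library from lungs with IRF7-C435A tumours (0.116% [0.0601, 0.203]), and 46 were among 10051 of the library from lungs with wild-type IRF7 tumours (0.458% [0.335, 0.610]).

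Both libraries hold live immune cells positive for CD45, a surface protein of white blood cells, sorted from digested lung tissue of C57 mice with metastases grown from the mouse melanoma line B16F10. The tumour cells carried IRF7, an interferon regulatory factor, with the cysteine-to-alanine change C435A or in its wild-type form, which gives the names C435A library and WT library. The genotype is that of the tumour cells, not of the macrophages, and the sources used here give neither age, time after injection, the number of animals behind each library nor whether a cell lay in metastasis or lung. There was 1 library per group, so no test between the conditions was made, no difference has a replicate check, and intervals in brackets are 95% intervals for counting error only.

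Macrophages make C1q, the recognition part of the first complement component, and C1q-rich macrophages are common in tumours and in resident tissue. Arginase 1, the product of Arg1, splits arginine into ornithine and urea, and is known both from macrophages exposed to interleukin 4 and from macrophages in tissue poor in oxygen. Spp1 encodes osteopontin, a secreted phosphoprotein, Ccl7 a chemokine that draws monocytes, and Mmp12 a macrophage elastase. These genes, with C1qa and C1qb, are the marker genes of the cell type as it was named.

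The members held macrophage transcripts beyond those the rule used. All 10 genes of the macrophage marker list, 3 of which are the C1q genes of the rule, had UMIs in members of both libraries. Cd68, a lysosomal membrane protein, was found in 12 of 12 and 42 of 46 members, and Csf1r, the receptor for macrophage colony-stimulating factor, in 10 and 42. Lymphocyte transcripts were few, as the rule requires: the 9 T cell markers summed to 5 and 20 UMIs, the 7 B cell markers to 2 and 15, and the mast cell and fibroblast markers were at 0. Members had a median of 15970 UMIs in the C435A library and 10239 in the WT library, against 6625.5 and 9278 for the 64 and 113 Arg1-negative C1q macrophages, which meet the same rule without an Arg1 UMI. The 24 barcodes found in both libraries included no member.

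Arg1 was spread over a wide range among the members, and the share of C1q macrophages with it was lower in the C435A library. In UMIs per 10000 of the cell, the members' Arg1 ran from 0.422 to 79.1 with a median of 5.85 in the C435A library, and from 0.223 to 107 with a median of 9.31 in the WT library. The 12 members held 251 Arg1 UMIs and the 46 held 1401, of 1086 and 3817 in all kept barcodes. The groups overlapped over nearly the whole range. Of all C1q macrophages, 15.8% [8.43, 26.0] (12 of 76) held an Arg1 UMI in the C435A library and 28.9% [22.0, 36.6] (46 of 159) in the WT library, at median depths of 7147 and 9893 UMIs.

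Thinned to 2000 UMIs per cell, which left out 6 and 7 shallower cells, the share was 10% [4.12, 19.5] (7 of 70) in the C435A library and 19.7% [13.7, 27.0] (30 of 152) in the WT library. The difference of -9.74 percentage points had a Newcombe interval of [-18.4, 1.03], which held 0, so it was not distinguished from counting error. In B cells, which should lack Arg1, the thinned shares were 0.491% and 0.536%, both below the shares in C1q macrophages. Classical monocytes held an Arg1 UMI in 2 of 203 and 2 of 221 cells unthinned, and alveolar macrophages in 8 of 596 and 27 of 519.

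The thresholds of the rule left cells close to them on both sides. Just inside, 3 and 7 members had a single Arg1 UMI, and 2 and 6 had a C1q sum of 5 to 9. Just outside, 0 and 5 barcodes had Arg1 with a C1q sum of 3 or 4. Barcodes with a C1q sum of at least 5 and Arg1 numbered 29 and 106 before the other conditions, and lymphocyte transcripts removed 17 of 29 and 57 of 106. A doublet caller marked 0 of 12 and 4 of 46 members.

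**Figure D1:**
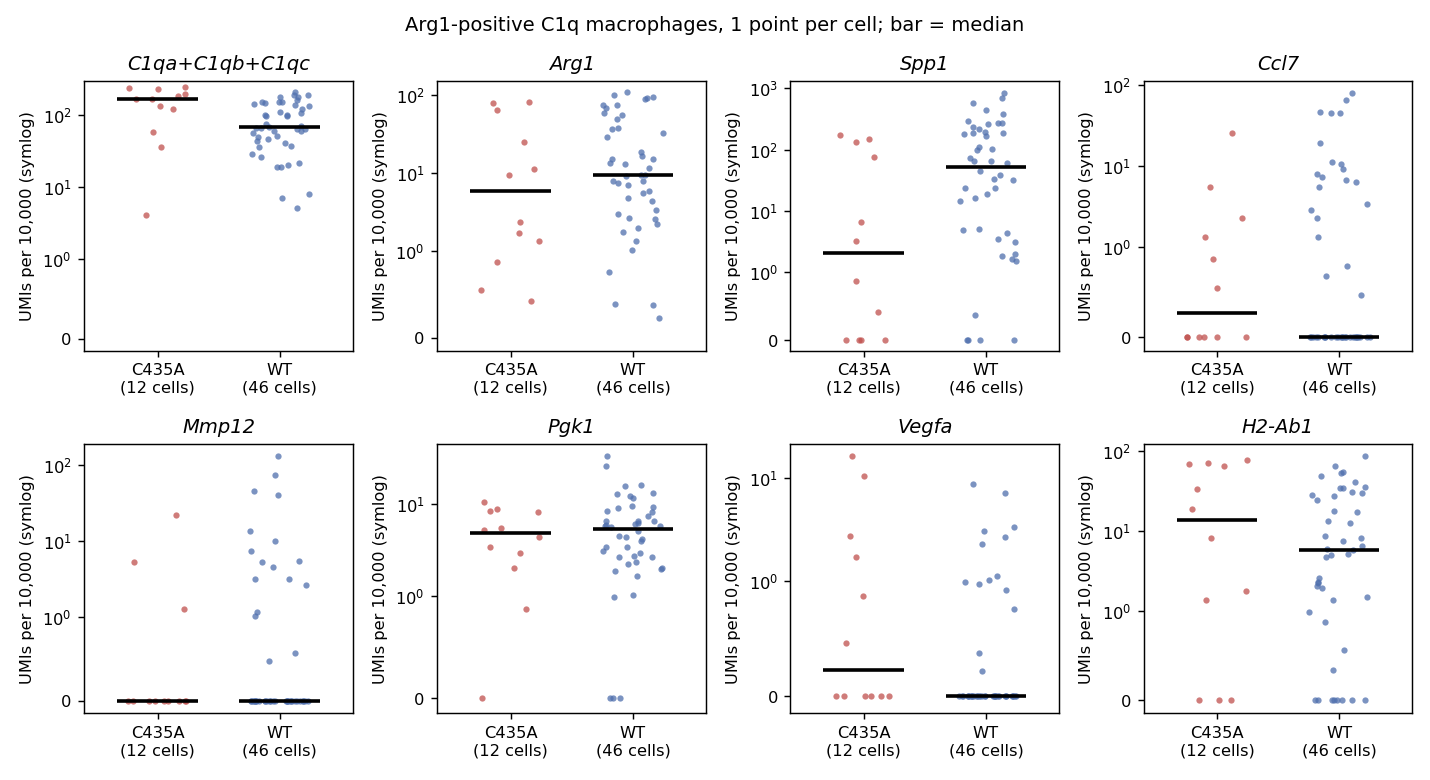
UMIs per 10000 of the cell in each of the 12 members of the C435A library (left) and the 46 members of the WT library (right), on an axis that is linear below 1 and logarithmic above, with bars at the medians. Arg1 reaches 79.1 and 107, Spp1 spreads from 0 to 171 and 829, and most members have no Mmp12.

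The other named markers were each found in some of the members, and Mmp12 was lower in members than in Arg1-negative C1q macrophages. Spp1 was found in 8 of 12 and 42 of 46 members, Ccl7 in 6 and 21, and Mmp12 in 3 and 17. In B cells the shares with a UMI were 5.14% and 21.6% for Spp1, 0.0961% and 0.558% for Ccl7, and 0.529% and 1.93% for Mmp12, at median depths of 2229 and 1959 UMIs. Members with at least 5 UMIs of Ccl7 had at least 5 of Spp1 in 12 of 14 cells, and those with Mmp12 in 10 of 11, where 40 of all 58 had that much Spp1. Of these 3 genes, 9 of 58 members held all, 27 held 2, 16 held 1 and 6 held none. All these counts are of raw UMIs in cells of unequal depth, and the part of depth was not tested. Mmp12 summed to 282 CPM (UMIs per 1000000 of the class) in members and 602 in Arg1-negative C1q macrophages of the C435A library, and to 712 and 1439 CPM in the WT library. Its log2 ratios of members over Arg1-negative cells were -1.09 [-1.58, -0.64] and -1.01 [-1.17, -0.86], so both were below 0. In the C435A library 1 cell held 87.0% of the members' Mmp12 UMIs, and with each cell thinned to 2000 UMIs before the rule, which left 6 members there, the ratio was 1.01.

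Spp1 was higher in members than in Arg1-negative C1q macrophages of the WT library, at 15578 and 8864 CPM, a log2 ratio of 0.81 [0.77, 0.85]. In the C435A library it stood at 4552 and 3829.8 CPM, a ratio of 0.25 [0.12, 0.37] that was -0.31 with a C1q sum of at least 10. Ccl7 had 497 and 178 CPM in the C435A library (1.48 [1.03, 1.94]) and 611 and 378 in the WT library (0.69 [0.50, 0.89]). A single cell held 75.3% of the Ccl7 UMIs of members in the C435A library, and with Arg1 at 2 UMIs or more the ratio there was -0.11. Ccl7 followed Ccl2, which also draws monocytes and lies in the same chemokine cluster, with r = 0.78 across the 58 members (log-scaled counts of cells from 2 libraries and of unequal depth).

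Genes of glycolysis and of the response to low oxygen were higher in Arg1-positive than in Arg1-negative C1q macrophages of both libraries. When oxygen is short, the transcription factor HIF-1 raises glucose transporters, glycolytic enzymes and Vegfa, a growth factor for blood vessels. Of 29 genes on the hypoxia and glycolysis list, 26 had at least 20 UMIs in each library's pair of classes. Of these, 23 were higher in both libraries and 0 lower in both, where 23.7% of all 4619 features were higher in both. Past 2-fold higher were 15 of 26 in the C435A library, where 4.19% of all features were, and 15 of 27 in the WT library, where 2.6% were. Past 2-fold in both were 11 of 26, where 0.476% of all features were. The median log2 ratio of the list was 1.07 in the C435A library and 1.09 in the WT library, where all features had medians of -0.08 and -0.00. Since the rule used Arg1 to split the cells, these ratios are a description, with no test.

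The difference was present across cells and not carried by 1 of them. Summed per cell, the list's genes ran from 37.4 to 393 UMIs per 10000 with a median of 98.9 in members of the C435A library, against a range of 0 to 183 and a median of 32.0 in its Arg1-negative cells. In the WT library they ran from 24.6 to 309 with a median of 112 in members, against 0 to 227 with a median of 51.7 in Arg1-negative cells. The classes overlapped in both libraries. Over the alternatives that were run, the list median stayed between 0.96 and 1.56 in the C435A library and between 1.06 and 1.19 in the WT library, and it was 1.15 and 1.09 with each cell thinned to 2000 UMIs before the rule.

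Enzymes of lower glycolysis were higher in members of both libraries. Pgk1, phosphoglycerate kinase, ran from 0 to 10.5 with a median of 4.77 UMIs per 10000 in members of the C435A library and from 0 to 33.3 with a median of 5.30 in those of the WT library, where the medians of Arg1-negative cells were 1.36 and 2.04. Its log2 ratios of members over Arg1-negative cells were 1.05 [0.63, 1.47] and 1.33 [1.11, 1.55]. Pgam1, the phosphoglycerate mutase that acts next, was found in 12 of 12 and 43 of 46 members, with ratios of 1.22 [0.92, 1.53] and 0.99 [0.84, 1.15]. Eno1, enolase, had ratios of 1.38 and 1.13, and Ldha, the lactate dehydrogenase subunit that turns pyruvate to lactate, 0.88 and 1.09. Slc16a3, which carries lactate out of the cell, summed to 202 CPM in members and 54.4 in Arg1-negative cells of the C435A library, and to 179 and 52.5 in the WT library. Gapdh, Pgk1 and several other glycolytic genes have processed pseudogenes, and the sources used here do not say how reads shared with them were counted.

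Most genes of the upper steps and of targets outside glycolysis went the same way. Slc2a1, the glucose transporter GLUT1, had log2 ratios of 1.97 [1.02, 2.93] and 1.31 [0.77, 1.86], and Pfkl, a phosphofructokinase subunit, 1.61 and 1.01. Vegfa was sparse, with 16 UMIs in 6 of 12 members against 4 UMIs in 2 of 64 Arg1-negative cells of the C435A library. In the WT library it had 49 UMIs in 14 of 46 members against 18 in 12 of 113, and the ratios were 3.55 [1.92, 5.59] and 2.44 [1.64, 3.31]. Hilpda, a lipid droplet protein induced by low oxygen, had ratios of 2.80 and 2.09, and Ero1a, an oxidase of the endoplasmic reticulum, 1.75 and 1.51. Bnip3, which takes part in the removal of mitochondria, had 9 and 47 UMIs in members, with ratios of 1.14 [-0.29, 2.51] and 1.97 [1.23, 2.74]. Hif1a itself had ratios of 0.54 [0.00, 1.06] and 0.95 [0.63, 1.26]. Hk3, a hexokinase of myeloid cells, had opposite signs, 1.02 and -0.87, and Hk1 and Pfkfb3 were the other genes of the list that were not higher in both.

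The promoters of 4 of these genes are shown because they hold the core of the HIF binding motif, ACGTG, in the 250 bases before the gene's start. The sequences are RefSeq's for GRCm38.p6, 5′ to 3′ on the plus strand, at chrX:106186850-106187099 for Pgk1, chr7:46845554-46845803 for Ldha, chr19:41911621-41911870 for Pgam1 and chr11:120948817-120949066 for Slc16a3. Capitals mark ACGTG and its reverse complement CACGT, which overlap in CACGTG.
Pgk1: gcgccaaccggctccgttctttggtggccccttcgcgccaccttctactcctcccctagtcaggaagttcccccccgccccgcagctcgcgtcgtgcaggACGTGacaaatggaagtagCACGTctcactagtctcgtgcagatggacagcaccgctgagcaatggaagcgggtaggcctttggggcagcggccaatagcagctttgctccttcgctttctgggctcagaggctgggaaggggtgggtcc
Ldha: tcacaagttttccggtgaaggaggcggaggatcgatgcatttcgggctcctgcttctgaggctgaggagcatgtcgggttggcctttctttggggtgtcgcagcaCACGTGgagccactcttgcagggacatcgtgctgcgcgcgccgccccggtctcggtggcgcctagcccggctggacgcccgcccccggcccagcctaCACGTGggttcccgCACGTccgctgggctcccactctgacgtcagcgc
Pgam1: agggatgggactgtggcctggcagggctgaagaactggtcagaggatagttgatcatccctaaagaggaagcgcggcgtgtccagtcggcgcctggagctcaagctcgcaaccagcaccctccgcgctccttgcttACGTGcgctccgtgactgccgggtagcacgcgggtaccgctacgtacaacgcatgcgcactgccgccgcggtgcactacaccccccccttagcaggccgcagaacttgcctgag
Slc16a3: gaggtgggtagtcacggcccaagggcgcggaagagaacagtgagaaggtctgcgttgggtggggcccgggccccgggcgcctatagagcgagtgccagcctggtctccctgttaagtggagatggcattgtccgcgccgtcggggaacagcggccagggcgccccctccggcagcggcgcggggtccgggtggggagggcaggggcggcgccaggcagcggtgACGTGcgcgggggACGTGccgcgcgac
Searched on both strands over the same 250 bases, the motif was in 18 of the 28 genes of the hypoxia and glycolysis list that had a promoter sequence (64.3%). It was in 18.5% of all 27025 genes. Of the 11 genes of the MHC class II and costimulation list, 6 had a sequence, H2-Ab1 and Cd74 not among them, and 0 of these 6 held the motif. By windows, some genes having several, the motif was in 20 of 39 for the hypoxia and glycolysis list (51.3%) and in 16.6% of all 32851. The list was drawn up from genes known to respond to low oxygen or to belong to glycolysis, and a match describes the letters of the promoter only.

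**Figure D2:**
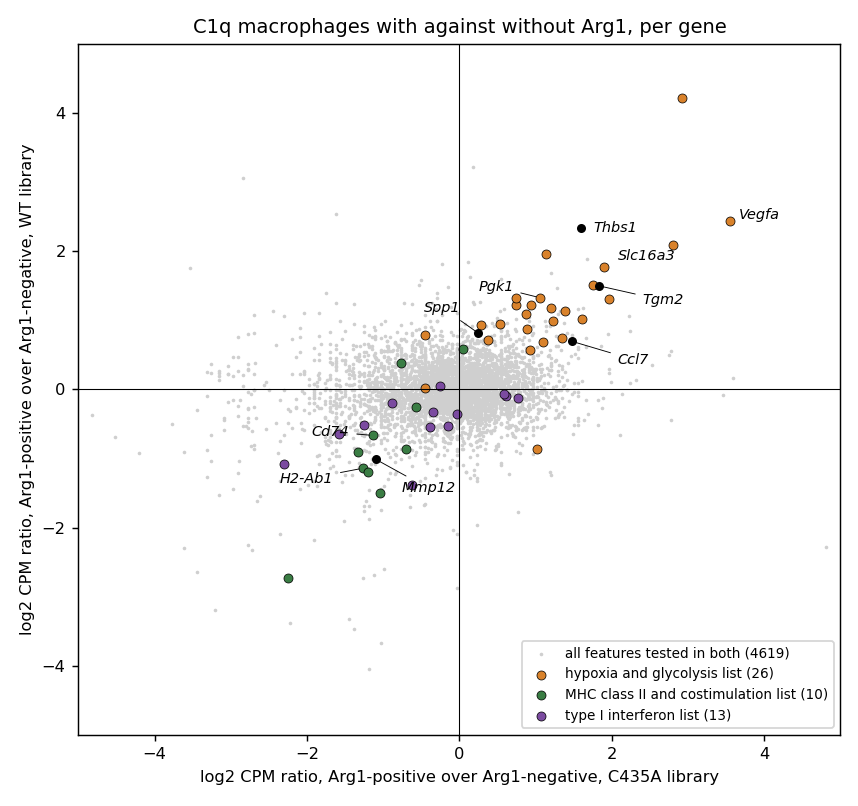
Log2 CPM ratio of Arg1-positive over Arg1-negative C1q macrophages for each of 4619 features, in the C435A library (horizontal) and the WT library (vertical); 4 features lie outside the axes. Most genes of the hypoxia and glycolysis list (orange) sit in the upper right, and 8 of 10 genes of the MHC class II and costimulation list (green) in the lower left, as does Mmp12; the type I interferon list is purple.

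Beyond this list, the genes highest in members of both libraries included Thbs1 and Fn1, which encode matrix proteins, and the enzyme gene Tgm2. Besides Arg1, the naming rule gave Tgm2, Thbs1, Slc16a3, Srgn, Ccl6, Ltc4s, Fn1, Eno1, Pgam1, Rnase4 and Rhoc. Thbs1, thrombospondin 1, ran from 0 to 32.9 with a median of 1.79 UMIs per 10000 in members of the C435A library and from 0 to 166 with a median of 3.72 in those of the WT library. Its log2 ratios over Arg1-negative cells were 1.59 [1.19, 2.00] and 2.34 [2.16, 2.53]. Fn1, fibronectin, was found in 9 of 12 and 43 of 46 members, and in 25 of 64 and 57 of 113 Arg1-negative cells, with ratios of 1.37 [1.21, 1.53] and 0.97 [0.88, 1.05]. Tgm2, a transglutaminase that crosslinks proteins and is induced by interleukin 4, had ratios of 1.83 and 1.50, and Srgn, the core protein of a granule proteoglycan, 1.28 and 1.47. Ltc4s makes leukotriene C4, and its ratios were 1.62 and 1.18. The chemokine Ccl6 had ratios of 1.12 and 0.98.

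Of the arginine and alternative activation list, 8 of 14 measured genes were higher in both libraries and 2 lower in both, where 23.7% and 30.9% of all features were. The 8 include Arg1 itself, by which the rule split the classes. Il4ra, the receptor chain for interleukin 4, had 32 and 67 UMIs in members and log2 ratios over Arg1-negative cells of 2.23 [1.38, 3.11] and 1.06 [0.55, 1.58]. Mrc1, the mannose receptor, had ratios of 0.37 [-0.23, 0.94] and 0.66 [0.38, 0.95]. Mgl2, a lectin of alternatively activated macrophages and dendritic cells, was lower, -0.99 [-1.68, -0.36] and -2.60 [-3.46, -1.84]. Chil3 and Retnla, which in mouse mark macrophages exposed to interleukin 4, came mostly from single cells: 1 member of the WT library held 82.7% of 1289 Chil3 UMIs there, and 1 member of the C435A library held 96.8% of 524 Retnla UMIs. Nos2, the inducible nitric oxide synthase that competes for arginine, had 0 UMIs in the members of both libraries, a floor of 3 counts allowing up to 18.4 CPM in the C435A library and 4.76 CPM in the WT library.

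Genes of antigen presentation on MHC class II were lower in members than in Arg1-negative C1q macrophages of both libraries. Of the 10 measured genes of the MHC class II and costimulation list, 8 were lower in both, where 30.9% of all features were, and 4 were past 2-fold lower in both, where 1.26% were. The list's median log2 ratio was -1.08 in the C435A library and -0.87 in the WT library. Past 2-fold lower were 6 of 10 in the C435A library, where 13% of all features were, and 4 of 11 in the WT library, where 4.78% were. H2-Ab1, a beta chain of MHC class II, ran from 0 to 77.4 with a median of 13.6 UMIs per 10000 in members of the C435A library and from 0 to 86.4 with a median of 5.86 in those of the WT library, where the medians of Arg1-negative cells were 62.1 and 10.9. Its log2 ratios were -1.27 [-1.42, -1.12] and -1.14 [-1.24, -1.04]. Cd74, the invariant chain, had ratios of -1.13 [-1.22, -1.04] and -0.67 [-0.73, -0.61], and Ciita, the transactivator of these genes, had 2 and 5 UMIs in members and ratios of -2.26 [-5.37, -0.27] and -2.73 [-4.40, -1.43]. The members were not uniform: H2-Ab1 was at 0 in 3 of 12 and 8 of 46, and H2-Ab1 and Cd74 ran together across the 58 cells with r = 0.94. Marker lists of conventional dendritic cells, which also present antigen on MHC class II, were lower in members too. The cDC2 list summed to 166 CPM in members and 418 in Arg1-negative cells of the C435A library, and 52.4 and 186 in the WT library. The cDC1 list summed to 61.3 CPM in members and 146 in Arg1-negative cells of the C435A library, and 69.8 and 103 in the WT library. The mature dendritic cell list did not go one way, with 0 CPM in members and 222 in Arg1-negative cells of the C435A library, and 175 and 55.7 in the WT library. For classical monocytes the sums were 497 CPM in members and 1027 in Arg1-negative cells of the C435A library, and 719 and 1084 in the WT library. The part of these lists in the result was not tested.

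The other genes named as lower in members of both libraries were Ccl5, Mmp19, Slpi, Ccr2, Lpl, Tmem176b, Pou2f2, Clec4a3 and Gzma. Ccr2, the receptor that brings monocytes into tissue, had log2 ratios of -1.40 [-2.07, -0.80] and -1.25 [-1.64, -0.87], and Lpl, lipoprotein lipase, -1.58 [-2.07, -1.13] and -0.97 [-1.17, -0.77]. Ccl5 and Gzma are transcripts of T and NK cells, and had 9 and 6 UMIs in members against 243 and 65 in Arg1-negative cells of the C435A library. In the WT library they had 22 and 2 in members against 402 and 147 in Arg1-negative cells. The NK cell marker list summed to 42.9 CPM in members and 188 in Arg1-negative cells of the C435A library, and to 7.93 and 161 in the WT library, and its part in these results was not tested.

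Most measured genes induced by type I interferon were lower in members of both libraries. Of 13 measured genes of that list, 9 were lower in both libraries and 0 higher in both, where 30.9% and 23.7% of all features were, and the list medians were -0.35 and -0.64. In the C435A library the list's sum had the opposite sign, 2429 CPM in members and 2144 in Arg1-negative cells. In the WT library the sums were 2516 and 3583 CPM. Summed per cell, the list had medians of 27.8 UMIs per 10000 in members and 15.1 in Arg1-negative cells of the C435A library. In the WT library these medians were 19.3 and 18.5, so by this measure members were higher in both. Isg15, a ubiquitin-like protein of this response, had 4 and 60 UMIs in members and log2 ratios of -1.58 [-3.53, -0.09] and -0.64 [-1.09, -0.22]. Irf7 itself had 7 and 32 UMIs in members, too few to distinguish a difference between the libraries (-0.24 [-1.67, 0.96]).

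Among C1q macrophages ordered by Arg1, the hypoxia and glycolysis sum and Thbs1 were highest where Arg1 was highest. The cells were put in ranges of 0, under 2, 2 to 10 and over 10 Arg1 UMIs per 10000 of the cell, which held 64, 5, 2 and 5 cells of the C435A library and 113, 8, 16 and 22 of the WT library. Along these ranges the hypoxia and glycolysis list summed to 5311, 7699, 8029 and 17332 CPM in the C435A library, and to 6067, 11421, 7798 and 14682 CPM in the WT library. The top range was highest in both, and the steps below it had no single order. Vegfa stood at 14.3, 25.4, 13.6 and 166 CPM in the WT library, with 18, 4, 3 and 42 UMIs behind these values. Thbs1 stood at 211, 314, 937 and 1029 CPM in the C435A library and 277, 235, 902 and 2571 CPM in the WT library. The 23 Thbs1 UMIs behind the value of 937 CPM were all from 1 cell.

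The MHC class II genes summed to 18918, 14562.5, 9294 and 8288 CPM along the ranges of the WT library. In the C435A library they were 37917.5, 24633, 693 and 10456.5 CPM, where the third value rests on 2 cells. The medians over cells were 405, 357, 6.11 and 96.5 UMIs per 10000 in the C435A library and 67.4, 149, 28.2 and 28.7 in the WT library, so that in that library the range under 2 was the highest. Across the 58 members alone, r of Arg1 with H2-Ab1 was -0.04. Mmp12 was at 1439, 2264, 145 and 242 CPM in the WT library, so that it was highest among members with little Arg1. Spp1 in the same library was at 8864, 14130.1, 12522 and 19151 CPM. Median depths of the ranges differed, 6625.5, 17618, 12267.5 and 5803 UMIs in the C435A library and 9278, 18064.5, 12762 and 9869.5 in the WT library, and the part of depth was not tested.

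**Figure D3:**
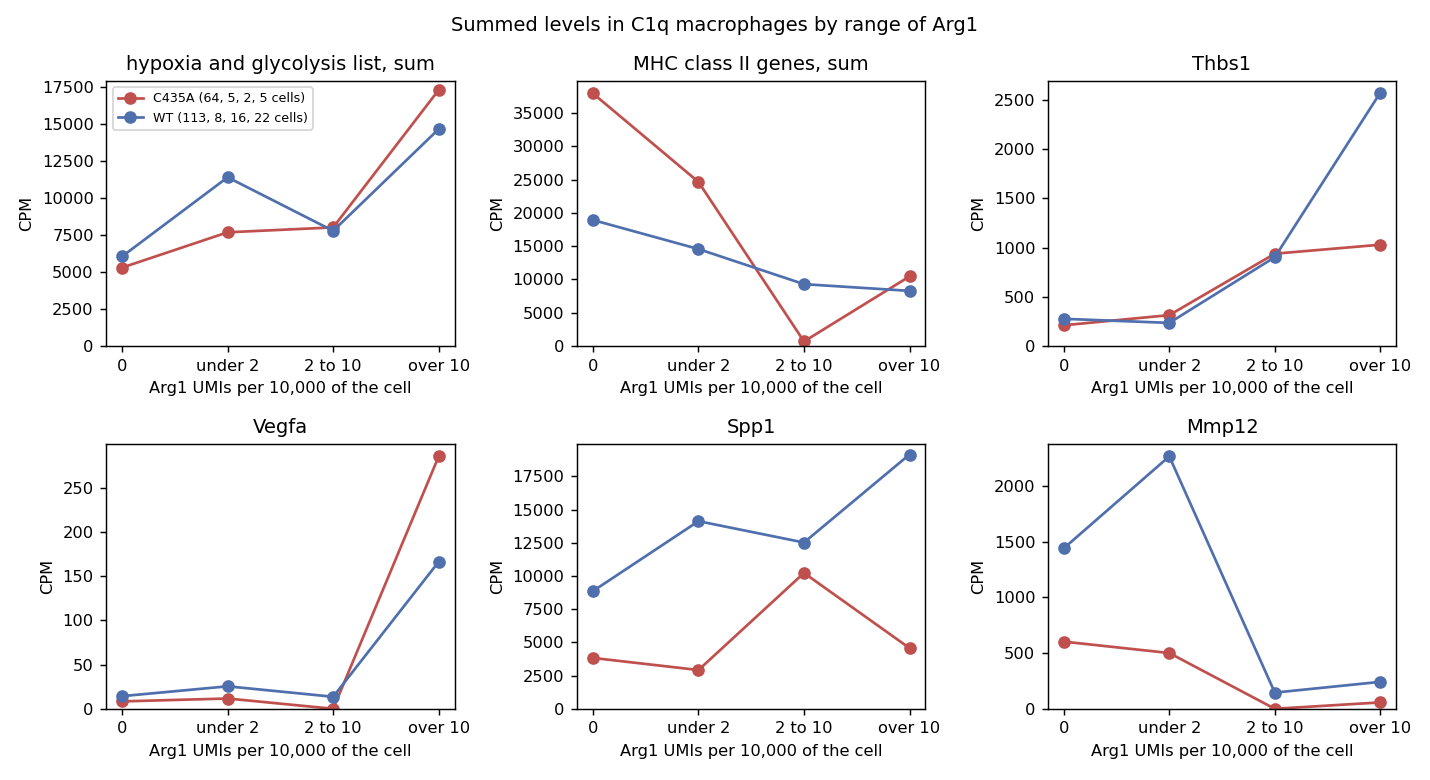
Summed CPM of the hypoxia and glycolysis list, of the MHC class II genes and of 4 single genes in C1q macrophages, by range of Arg1 UMIs per 10000 of the cell, for the C435A library (red; 64, 5, 2 and 5 cells) and the WT library (blue; 113, 8, 16 and 22 cells). The hypoxia and glycolysis sum and Vegfa are highest in the range over 10 in both libraries, and Mmp12 is lower in the upper ranges than at 0.

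Cell by cell, the genes that followed Arg1 most closely across the 58 members were Srgn (r = 0.53), Ldha (0.48), Rai14 (0.47), Thbs1 (0.46), Vegfa (0.46) and Pgk1 (0.44). Within the 46 members of the WT library the same values were 0.57, 0.46, 0.44, 0.45, 0.40 and 0.43. The most opposed were Lgals3bp (-0.50), Selplg (-0.47), Otulinl (-0.47) and Cybb (-0.46), of which Cybb encodes the catalytic subunit of the phagocyte oxidase. The coefficients are over log-scaled counts, 1988 genes were ranked, the cells share 2 libraries, and their depths differ. Spp1 and Ccl7, which are marker genes of the cell type as named, had r = 0.13 and 0.12 with Arg1, and Mmp12 had -0.20.

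**Figure D4:**
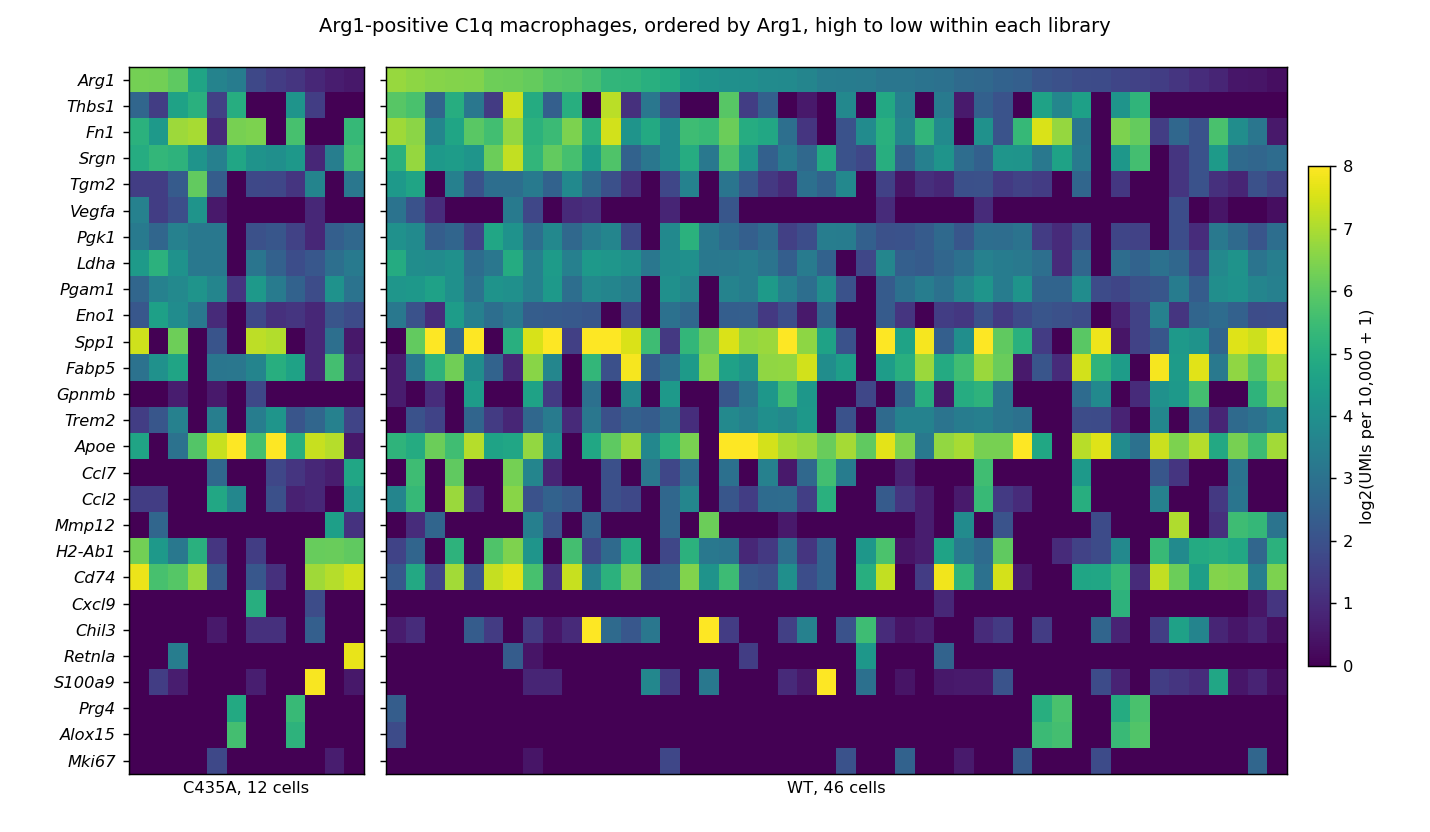
Log2(UMIs per 10000 + 1) of 27 genes (rows) in the 12 members of the C435A library (left) and the 46 of the WT library (right), each column a cell, ordered by Arg1 from high to low. Thbs1 and Vegfa gather toward the high-Arg1 end, H2-Ab1 and Cd74 vary together, and 2 and 5 cells hold Prg4 with Alox15.

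A few members stood apart by Prg4 and Alox15, genes of a joint lubricant and of a lipoxygenase that are known from large resident macrophages of the body cavities. They were 2 of 12 and 5 of 46, counting cells with at least 5 UMIs of both genes together, and the other 51 had 0 UMIs of either. With them went Saa3, an acute-phase apolipoprotein, with 118 and 306 UMIs in these cells against 1 and 24 in the other members. Selp had 12 and 26 UMIs against 0 and 0. Gata6, the transcription factor of those macrophages, had 0 and 7 UMIs against 0 and 1. Spp1 had 0 and 4 UMIs in the Prg4 and Alox15 cells against 742 and 9814 in the others, while Fn1 stood at 6037 and 10147 CPM against 3462 and 2614. Of the 23 members with at least 5 UMIs of Thbs1, 7 were Prg4 and Alox15 cells. In the range of 2 to 10 Arg1 UMIs per 10000, such a cell held all 23 Thbs1 UMIs of the C435A library. In the WT library such cells held 45, 37, 14 and 12 of the 199 Thbs1 UMIs of that range. Prg4 was not particular to members, since 4 of 64 and 9 of 113 Arg1-negative C1q macrophages held a UMI of it. The Prg4 and Alox15 cells were picked out after their values were seen, and without them the hypoxia and glycolysis list medians were 1.10 and 1.06.

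Between the libraries, members of the C435A library had less Spp1, Gpnmb and Fabp5, and more C1q transcripts. Their MHC class II transcripts were higher too, but lower with Arg1 at 2 UMIs or more. Of 5145 features with at least 20 UMIs over both, 14.9% were past 2-fold between the libraries, 4.35% higher and 10.5% lower in the C435A library, and the median ratio was -0.03. Spp1 held 742 and 9818 UMIs, or 4552 and 15578 CPM, a log2 ratio of C435A over WT of -1.78 [-1.88, -1.67]. Per cell it ran from 0 to 171 with a median of 2.05 UMIs per 10000 in the C435A library, and from 0 to 829 with a median of 52.7 in the WT library, so that the ranges overlapped. Gpnmb, a membrane glycoprotein of macrophages laden with lipid that melanoma cells also make, had 6 UMIs in 3 of 12 members and 1061 in 28 of 46 (-5.52 [-6.96, -4.39]), where 1 WT cell held 35.7%. The melanoma marker list, which includes Gpnmb, held 4 and 75 UMIs in members besides those of Gpnmb, and its part in the result was not tested. Fabp5, a fatty acid binding protein, stood at 1718 and 5972 CPM (-1.80 [-1.98, -1.62]).

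The lower levels of Spp1, Gpnmb and Fabp5 in the C435A library were not particular to the members. In Arg1-negative C1q macrophages Spp1 stood at 3829.8 CPM in the C435A library and 8864 in the WT library, Gpnmb at 1039.5 and 2172, and Fabp5 at 2437 and 6850.5. The Gpnmb gap was wider in members, at 36.8 and 1683 CPM. C1qa in Arg1-negative cells went the other way than in members, with 3027 CPM in the C435A library and 3779 in the WT library. In B cells, which should lack Spp1 and Gpnmb, Spp1 stood at 38.5 and 121 CPM and Gpnmb at 40.9 and 121, so the level in cells that should lack them also differed between the libraries. The Gpnmb level of members of the C435A library, 36.8 CPM, was not above that of its B cells.

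The lipid-associated macrophage list, to which these genes belong, had a median log2 ratio of C435A over WT of -0.66, with 15 of 19 measured genes lower and 3 past 2-fold lower. The share past 2-fold lower was near the 10.5% of all features. Trem2, a lipid receptor of such macrophages, stood at 761 and 652 CPM (0.22 [-0.08, 0.52]), and Apoe at 12839 and 9374 (0.45 [0.38, 0.53]), a ratio of -0.089 without the top cell of each library. The matrix list had a median of -0.90, with 13 of 16 genes lower and 7 past 2-fold lower, where 10.5% of all features were, but 0.11 with each cell thinned to 2000 UMIs. Thbs1 was lower in the C435A library (-1.14 [-1.45, -0.84]), and Fn1 was not distinguished from counting error (0.13 [-0.00, 0.26]). The hypoxia and glycolysis list had a median of -0.00 between the libraries, with 3 of 27 genes past 2-fold higher and 0 lower, where 4.35% and 10.5% of all features were.

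C1qa, by which the rule chose the cells, stood at 6950.1 and 3648 CPM (0.93 [0.83, 1.03]), and Arg1 at 1539.7 and 2223 CPM (-0.53 [-0.73, -0.34]), with 1 cell holding 45.8% of the members' Arg1 UMIs in the C435A library. The Arg1 ratio was 0.17 when barcodes with lymphocyte transcripts were let in, and 0.13 with each cell thinned to 2000 UMIs before the rule. MHC class II and costimulation genes had a median ratio of 0.68, with 6 of 9 genes higher and 3 past 2-fold higher, where 4.35% of all features were. With Arg1 at 2 UMIs or more, which left 9 and 39 cells, the median was -0.75, and H2-Ab1 was at -0.84. Type I interferon genes had a median of -0.51, with 7 of 17 past 2-fold lower and 0 higher, where 10.5% and 4.35% of all features were. The medians of these genes' interval bounds were -1.81 and 0.39, on either side of 0. The list summed to 2429 and 2516 CPM. Summed per cell it went the other way, with medians of 27.8 UMIs per 10000 in the C435A library and 19.3 in the WT library.

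**Figure D5:**
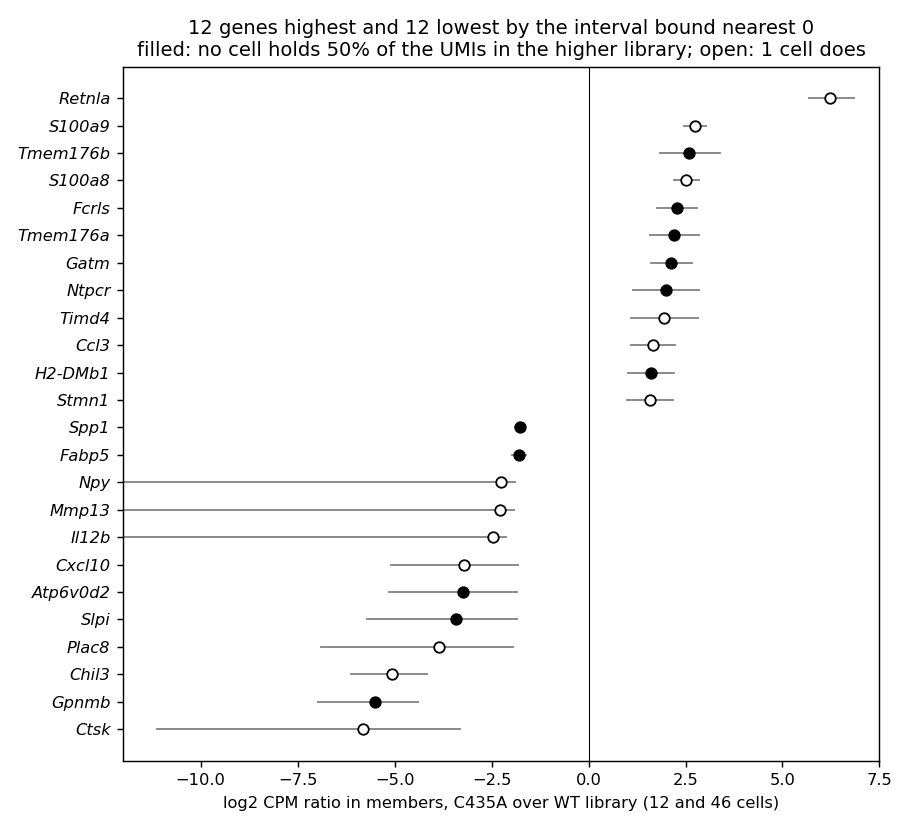
Log2 CPM ratio in members, C435A over WT library (12 and 46 cells), for the 12 highest and 12 lowest genes, with 95% intervals for counting error; a line that reaches the left edge has no lower bound because the C435A count was 0 and the point was set by a floor of 3 counts. Open points, among them Retnla, S100a8, S100a9 and Chil3, are genes for which 1 cell holds at least 50% of the UMIs in the library where the gene is higher.

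The other genes named between the libraries had UMIs in few cells, or mostly in 1. Higher in the C435A library with at least 6 cells behind them were Tmem176b (2.59 [1.83, 3.38]), Tmem176a (2.21), Fcrls, an Fc receptor-like gene of resident macrophages (2.28), Gatm, which makes the precursor of creatine from arginine (2.13), Ntpcr (2.01) and H2-DMb1 (1.62). Even so, 1 cell held 48.5% of the Gatm UMIs and 1 cell 47.8% of the H2-DMb1 UMIs in members of the C435A library. Lower in the C435A library were Slpi (-3.42) and Atp6v0d2, a proton pump subunit (-3.24), with 15 and 18 of 46 WT cells behind them. Single cells held most of the UMIs of Retnla, S100a8, S100a9, Ccl3, Timd4 and Stmn1 in the C435A library, and of Chil3, Ctsk, Cxcl10, Plac8, Mmp13, Npy and Il12b in the WT library. Timd4 had 25 UMIs in members of each library, all in the Prg4 and Alox15 cells, and 0 in the other members. Il12b, a subunit of interleukin 12, had 64 UMIs in 1 WT member and 0 in the C435A library.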

How the data were processed

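Counts of UMIs per gene and barcode were used as the authors deposited them. The submitters' processing notes name Cell Ranger 7.2.0 and the build GRCm38. The labels' protocols name both BD Rhapsody and 10x Chromium chemistry, so the capture platform is uncertain, and the cell type label reads melanoma although CD45 was sorted. The sources used here do not give the annotation release or the intron setting. The 2 matrices held 10373 and 10156 barcodes (C435A, then WT) with 59615672 and 54934397 UMIs and 55357 features, and 60 and 105 barcodes were removed for depth or mitochondrial share.

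The members and gene lists were chosen with earlier results of these data known. Summed UMIs of a class were scaled by the class's own total (CPM). Log2 ratios have exact conditional 95% intervals, and shares have exact Clopper-Pearson intervals. Nothing shows that cells are independent samples of a condition, and no p-value was computed. Features with at least 20 UMIs over the 2 sums were compared, past 2-fold being a rule of size, and a count of 0 was set to 3. The 12 highest and 12 lowest genes by the interval bound nearest 0, with at least 50 UMIs and, between libraries, 50 CPM, were named in each comparison, besides genes of 18 lists and 21 marker lists. Doublets were marked as the highest 0.8% per 1000 barcodes by Scrublet (scanpy 1.11.5) and kept, removal being an alternative. Thinning drew UMIs without replacement, with seed 0. Correlations used log2(UMIs per 10000 + 1). Scaling alternatives used edgeR 4.0.16. The interval code was tested on simulated class sums that varied by counting error only. That test could not cover the uneven spread of UMIs over cells. Ero1l was found under its newer symbol Ero1a.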

Additional observations from a re-analysis of the deposited data

Results flagged for a closer look

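The genes of the lists and the naming rule were searched where each library's pair of classes held at least 50 UMIs and its members some. In 3 of them the members differed from Arg1-negative C1q macrophages in opposite directions in the libraries. Each interval was clear of 0, and in at least 1 library the whole interval lay past 2-fold. The difference between the libraries was not tested. Ccl4, a chemokine, had a log2 ratio of -2.68 in the C435A library and 0.39 in the WT library, with 4 and 118 UMIs in members. S100a8 had 4.82 and -2.29, and S100a9 5.89 and -2.37. These last are abundant neutrophil transcripts: 1 member held 96.9% and 98.6% of their UMIs in members of the C435A library. The neutrophil marker list summed to 544 UMIs in members of that library, of which 1 cell held 95.8%. In Arg1-negative cells of the WT library it summed to 3823 UMIs, of which 1 cell held 64.7%, and its part in the result was not tested.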

How the results depend on the processing

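No paired analysis was possible because each group has 1 library, and for the same reason no replicate could be left out. Without the condition on lymphocyte transcripts, an alternative chosen after seeing the data that admitted 24 and 91 cells, the difference in the share of members was -0.673 points. The number of features past 2-fold between the libraries, 766 of 5145, was 1163 of 5145 with cells weighted alike, 160 of 742 (21.6%) with each cell thinned to 2000 UMIs before the rule, 5155 of 12917 (39.9%) with features of at least 1 UMI and 59 of 1213 (4.86%) with at least 100 UMIs. Between the libraries the MHC class II and costimulation median was -0.75 with Arg1 of at least 2 UMIs, 0.28 without the lymphocyte condition and 0.49 without the top cell of each gene. The lipid-associated median was -0.97 thinned and -0.94 without the top cell, and the matrix median 0.11 thinned. For members over Arg1-negative cells, the count past 2-fold in the C435A library was 286 of 1161 thinned (24.6%; 796 of 4629 in full), and in the WT library 1030 of 7745 with cells weighted alike (571 in full). In the same comparison the MHC class II and costimulation median was -2.50 with Arg1 of at least 2 UMIs, -1.52 thinned and -1.61 without the top cell in the C435A library, and -1.0, -1.43, -1.08 (cells weighted alike) and -1.17 (without marked doublets) in the WT library. Single genes also turned round. Between the libraries, with Arg1 of at least 2 UMIs, S100a9 was -3.48, S100a8 -2.15, H2-Ab1 -0.84 and Cd74 -0.79; thinned, Arg1 was 0.13, Mmp12 2.67, S100a9 -1.66 and S100a8 -1.48. Without the lymphocyte condition Arg1 was 0.17 and Plac8 0.066, without the Prg4 and Alox15 cells Ccl3 was -0.52, and without the top cell S100a9 was -2.59, S100a8 -1.59, Ccl3 -0.11 and Apoe -0.089. Over Arg1-negative cells of the C435A library, Ccl7 was -0.11 with Arg1 of at least 2 UMIs, Spp1 -0.31 with a C1q sum of at least 10, Apoe -0.17 without the top cell, and, thinned, Ccl7 was -1.61, Mmp12 1.01, Pou2f2 0.37, Clec4a3 0.022, Trem2 -0.84 and Apoe -0.38. In the WT library Apoe was -0.013 with cells weighted alike and the phagocytic receptor median -0.015 thinned. The causes were not tested; thinning left 6 and 41 cells. The median of all features, -0.03 between the libraries, was 0.37 with features of at least 1 UMI and -0.23 without the top cell; over Arg1-negative cells of the C435A library, where it was -0.08, it was -0.26 without the top cell and 0.089 thinned.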

Other observations

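Other lists had smaller median differences between members and Arg1-negative C1q macrophages than the hypoxia and glycolysis list and the MHC class II list. Chemokines had median log2 ratios of 0.80 in the C435A library and 0.63 in the WT library, with 7 of 14 measured genes higher in both and 2 lower in both, where 23.7% and 30.9% of all features were. Pf4, a platelet factor that macrophages also make, was among them, with ratios of 1.47 [1.21, 1.74] and 0.79 [0.64, 0.94]. Phagocytic receptors had 13 of 20 genes higher in both (23.7% of all features), including C5ar1, the receptor for complement C5a (1.13 [0.59, 1.66] and 0.92 [0.61, 1.22]). Interferon gamma response genes, a list with the MHC class I genes H2-K1 and H2-D1 but no class II gene, had 12 of 17 lower in both (30.9% of all features). The lipid-associated list had medians of 0.05 and -0.17, so that by this measure it lay near 0 in both, unlike the hypoxia and glycolysis list. Summed per cell, the lipid-associated list was higher in members. Its medians were 257 UMIs per 10000 in members and 183 in Arg1-negative cells of the C435A library, and 503 and 284 in the WT library. Nuclear genes of oxidative phosphorylation stood at 0.17 and -0.13, and heat shock and early response genes at 0.28 and -0.05.

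Lysosome and iron genes had medians of 0.41 and 0.04, inflammatory cytokines 0.14 and 0.49, and growth and angiogenic factors 0.16 and 0.08. Checkpoint ligands stood at 0.12 and -0.11, interstitial macrophage genes at 0.24 and 0.62, genes of monocyte origin at 0.00 and -0.13, and cell cycle genes at -0.20 and 0.59. Of the 58 members, 4 held at least 5 UMIs of Mki67, a gene of dividing cells. All 4 also held at least 5 of Spp1, as did 40 of all 58. These 4 were deep cells, with 21675 UMIs in the C435A library and 26805, 29591 and 20428 in the WT library. The medians of members were 15970 and 10239, and the part of depth was not tested.

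Marker lists of other cell types not given above held these UMIs in the 12 and 46 members (C435A, then WT). The list of nonclassical monocytes held 47 and 126, the plasmacytoid dendritic cell list 63 and 284, the alveolar macrophage list 39 and 1640 and the mature dendritic cell list 0 and 110. In the WT library 1 cell held 66.5% of the alveolar macrophage UMIs, mostly as Chil3, and 1 cell 86.4% of the mature dendritic cell UMIs. The platelet list, which includes Pf4, held 231 and 681, and the group 2 innate lymphoid cell list 2 and 8, the erythroid list 1 and 11, the endothelial list 3 and 9 and the epithelial list 1 and 7.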
